A study of Mus musculus with 6 samples.

Results

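Integrins and the adaptor proteins of focal adhesions were examined in mouse induced pluripotent stem cells (iPSCs, reprogrammed cells that resemble embryonic stem cells) with and without serum response factor (SRF). The set holds 43 genes chosen by name, 17 integrin subunits and 26 adaptors, and all 43 were found among the 24421 gene entries of the count table. There were 3 bulk RNA sequencing libraries of cells with the Srf gene deleted (SRF Δ/Δ, called SRF KO) and 3 of cells with the intact conditional allele (SRF f/f, called WT), and both kinds of cell were grown in serum. How the allele was deleted, and whether the replicates were separate clones or separate cultures, is not given in the sources used here, so that p-values measure only the spread between these libraries, which may be technical. Total counts were between 26321602 and 36680156 per library.

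Integrins are receptors made of an alpha and a beta subunit that hold cells to the extracellular matrix. The alpha subunit largely decides which matrix protein is bound, and the tail of the beta subunit recruits talins and kindlins, which switch the receptor on and link it to actin through vinculin, filamins and alpha-actinins. Pluripotent mouse cells are known to attach to laminin and fibronectin, mainly through receptors that contain the beta 1 subunit. SRF is a transcription factor that binds the CArG box, and with its actin-regulated MRTF cofactors it is known to drive many cytoskeletal and adhesion genes.

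The labels were checked first. Srf had 36.6, 29.7 and 37.2 CPM in WT replicates 1 to 3 and 4.1997, 3.17 and 4.53 CPM in SRF KO replicates 1 to 3, where CPM is the count scaled to a common library size by TMM. Of 18 pluripotency markers 7 fell and 2 rose, with a summed level of 8893 to 9531 CPM in WT and 7714 to 7803 CPM in SRF KO, and each of them was above 0 in both groups. Markers of other cell types also differed. Of 23 fibroblast markers 22 rose, and their summed level was 741 to 850 CPM in WT and 1498 to 1819 CPM in SRF KO. Of 20 markers of extraembryonic endoderm, an early lineage that makes basement membrane, 19 could be tested and all 19 rose, with a summed level of 1195 to 1258 CPM in WT and 5288 to 5621 CPM in SRF KO. No fibroblast marker was at 0 throughout a group, and Ttr was the endoderm marker at 0 in all WT libraries. In bulk RNA, a different number of cells of a type and a different amount of RNA per cell cannot be told apart. The part of these markers' cell types in the results below was not tested. WT replicate 2 stood apart from the other WT libraries on the second principal component, at -17.7 against 6.72 and 12.1. SRF KO replicate 2 was at -6.76 on it, against 2.83 and 2.85 in the other SRF KO libraries.

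Integrin genes were mostly higher in SRF KO, while the adaptors moved both ways. The filter on low counts kept 40 of the 43 genes and removed Itga2, Itgb6 and Itgb8. At an adjusted p under 0.05 (edgeR's quasi-likelihood test, Benjamini-Hochberg adjustment over all genes and repeat subfamilies), 20 of the 40 were higher (50%), where 21.2% of all 14778 genes tested were higher. Another 8 were lower (20%), close to the 21.3% of all genes tested, and 12 did not pass the threshold. The genes were chosen with earlier results of these data known, so that these shares describe the set and do not test it. The median log2 fold change (SRF KO over WT) was 0.15 over the 40 genes and -0.01 over all genes tested. Of the 14 integrin subunits tested 10 were higher and 1 was lower, with a median of 0.42, and of the 26 adaptors 10 were higher and 7 lower, with a median of 0.07. A log2 change of 0.5 or more in size was reached by 12 genes that rose and by 1 that fell, Lima1, where 11.5% of all genes tested rose and 7.29% fell by as much. A change of 1 or more was reached by 4 genes that rose (Itga4, Parva, Fhl2 and Tgfb1i1) and by 0 that fell, against 5.53% and 1.76% of all genes tested. The 3 SRF KO values lay entirely above the 3 WT values for 21 of the 40 genes and entirely below them for 9, where these shares were 26.2% and 26.5% of all genes tested.

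**Figure D1:**
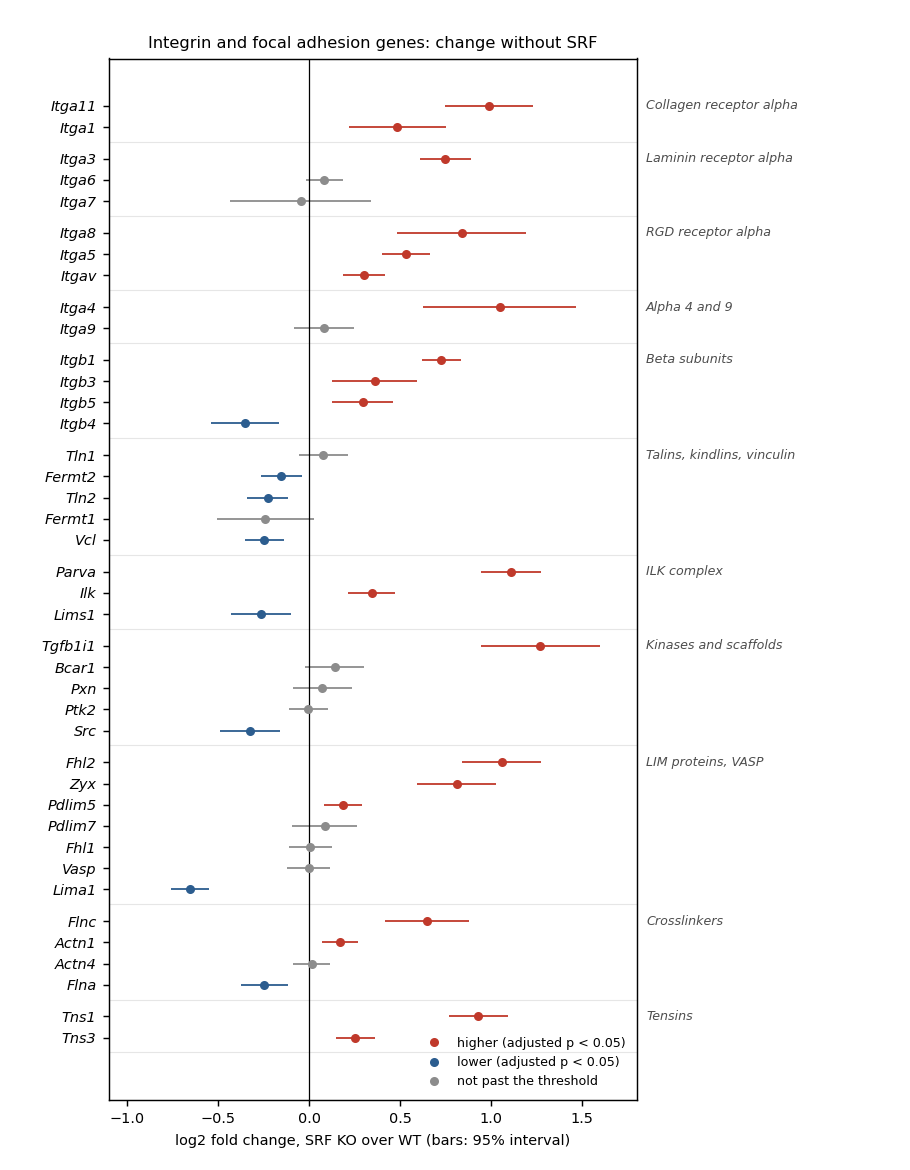
Log2 fold change of SRF KO over WT (x axis) for the 40 genes that passed the filter on low counts, grouped by role, with 95% intervals from the fit (n = 3 libraries per group). Red points passed the threshold as higher, blue points as lower and grey points did not pass it. The alpha subunits reach up to 1.05 and include no blue point, Tgfb1i1 has the highest value at 1.27 and Lima1 the lowest at -0.66.

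Since SRF acts through CArG boxes, the promoters of the set were searched for them, as a description of the sequences and not of binding. RefSeq promoter windows (GRCm38.p6, 250 bases before to 50 bases after a start site) matched 34 of the 43 genes, and Itga6, Itga7, Itgb3, Itgb4, Tln2, Pxn, Ptk2, Parva and Tgfb1i1 had no entry. A CArG box, here CC, then 6 bases that are each A or T, then GG, on either strand, was in a window of 3 of the 6 matched genes that fell (Vcl, Fermt2 and Lima1) and of 1 of the 17 that rose (Fhl2). It was also in a window of 1 of the 8 that missed the threshold (Fhl1) and in 1 of the 3 that were not tested (Itgb6). Over all genes with a window the share was 1.81%. It was 1.83% of the genes that fell and 1.80% of those that rose among all genes tested. These 5 stretches are shown because they carry the boxes of the expressed genes, with the box in capitals, 5′ to 3′ on the strand of the gene. The Vcl and Lima1 stretches are the whole 250 bases before the start site, and both boxes have the same letters.
Vcl (chr14:20929148-20929397, plus strand): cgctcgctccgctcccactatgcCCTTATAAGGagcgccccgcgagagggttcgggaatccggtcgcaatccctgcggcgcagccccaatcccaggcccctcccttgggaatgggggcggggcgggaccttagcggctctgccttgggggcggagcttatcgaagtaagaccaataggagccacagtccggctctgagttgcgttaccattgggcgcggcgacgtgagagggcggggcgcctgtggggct
Lima1 (chr15:99820150-99820399, minus strand): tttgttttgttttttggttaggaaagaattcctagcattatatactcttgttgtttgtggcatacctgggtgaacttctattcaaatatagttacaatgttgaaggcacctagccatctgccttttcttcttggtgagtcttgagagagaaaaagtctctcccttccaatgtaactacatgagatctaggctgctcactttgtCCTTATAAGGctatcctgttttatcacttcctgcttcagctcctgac
Fermt2 (chr14:45530235-45530294, minus strand): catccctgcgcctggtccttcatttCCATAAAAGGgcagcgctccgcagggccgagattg
Fhl2 (chr1:43163962-43164017, minus strand): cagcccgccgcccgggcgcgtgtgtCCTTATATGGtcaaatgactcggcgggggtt
Fhl1 (chrX:56779556-56779615, plus strand): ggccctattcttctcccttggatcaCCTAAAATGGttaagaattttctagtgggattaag

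The boxes lay at different distances from the start sites. That of Vcl was 227 to 218 bases before its start and that of Fermt2 204 to 195 bases before, both outside any gene of GENCODE M21. The box of Lima1, 47 to 38 bases before the start, and that of Fhl1, 102 to 93 bases before, lay within longer annotated forms of the same genes but in no exon, so that they are intronic for those forms. The Lima1 box also lay within the annotated gene Gm17057, again in no exon. Fhl2 had a box in each of its 2 windows, at 31 and at 96 bases before the start, of which the first is shown, also intronic for a longer form. The TEAD motif (GGAATG, or CATTCC on the other strand) was in windows of Vcl, Flna, Itgb1, Flnc and Actn4, 14.7% of the 34 genes against 16.6% of all genes with a window. The AP-1 motif (TGANTCA, either strand) was in windows of Zyx, Itga3, Itga9 and Actn4, 11.8% against 8.97%. No match overlapped a match of another motif.

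Among the alpha subunits of the set that bind collagen, both tested members were higher in SRF KO, as were 21.2% of all genes tested. Itga11, which pairs with beta 1 and is best known from fibroblasts, had 10.2, 11.1 and 13.2 CPM in WT replicates 1 to 3 and 23.0, 20.02 and 25.2 CPM in SRF KO replicates 1 to 3. The groups were apart, with a log2 fold change of 0.99 (SE 0.11, adjusted p by edgeR 2.85e-05). Itga1, another collagen receptor subunit, rose by 0.48 (SE 0.12, adjusted p by edgeR 0.00768), from 5.73 ± 0.165 to 8.02 ± 1.33 CPM (SD, n = 3). Itga2, which was not tested, had 11, 7 and 4 counts in WT replicates 1 to 3 and 13, 12 and 10 counts in SRF KO replicates 1 to 3. Itga10, a collagen-binding subunit outside the set, had a log2 fold change of -0.025 and missed the threshold (adjusted p by edgeR 0.926).

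The laminin-binding alpha subunits differed from each other. Itga6, the subunit of the main laminin receptor of pluripotent cells, had 249, 258 and 245 CPM in WT and 259, 274 and 263 CPM in SRF KO. These SRF KO values lay just above the WT values, and the change of 0.08 (95% interval -0.02 to 0.19) missed the threshold (adjusted p by edgeR 0.189). Without WT replicate 2 the change was 0.11 and passed it (adjusted p by edgeR 0.0374). Itga3, whose receptor with beta 1 binds laminins of epithelial basement membranes, had 78.9, 68.9 and 81.4 CPM in WT and 129.6, 123 and 132 CPM in SRF KO. Its log2 fold change was 0.75 (SE 0.06, adjusted p by edgeR 3.81e-06), and no SRF KO library came near the WT range. Itga7, a laminin receptor subunit of muscle, was low at about 3 CPM in both groups and had a log2 fold change of -0.05, with a 95% interval of -0.44 to 0.34.

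All 3 alpha subunits of the set that recognise the RGD sequence of fibronectin and vitronectin were higher, as were 21.2% of all genes tested. Itga5, the fibronectin receptor subunit, had 89.9, 81.0 and 93.5 CPM in WT and 130.2, 122 and 129.5 CPM in SRF KO, a log2 fold change of 0.53 (SE 0.06, adjusted p by edgeR 2.94e-05). Itgav, which pairs with several beta subunits, rose by 0.30 (SE 0.05), from 73.8 ± 3.97 to 90.9 ± 1.55 CPM (SD, n = 3). Itga8, which binds nephronectin and fibronectin, was much lower in level, with 1.46, 1.59 and 1.81 CPM in WT and 2.94, 2.49 and 3.22 CPM in SRF KO, and rose by 0.84 (SE 0.16). In each of these 3 genes the lowest SRF KO library was above the highest WT library, as in 26.2% of all genes tested. Itga2b, an RGD-binding subunit outside the set, fell by 0.62 on the log2 scale (adjusted p by edgeR 0.0124).

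The remaining alpha subunits of the set bind VCAM1 on other cells and certain forms of fibronectin or tenascin. Itga4 had 1.27, 1.01 and 1.50 CPM in WT and 2.16, 2.68 and 3.01 CPM in SRF KO, where the lowest count of a library was 26. Its log2 fold change of 1.05 (SE 0.19, adjusted p by edgeR 0.00108) was the largest among the alpha subunits, at a low level. Itga9 had 14.5, 14.8 and 14.2 CPM in WT and 15.2, 14.4 and 16.2 CPM in SRF KO, and these groups overlapped.

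Of the beta subunits, Itgb1 showed the largest rise. This common partner of most of the alpha subunits above had 271, 285 and 263 CPM in WT and 442, 456 and 454 CPM in SRF KO, a log2 fold change of 0.72 (SE 0.05, adjusted p by edgeR 5.65e-07). Its groups were separated by many times the SD of either, 11.4 CPM in WT and 7.41 CPM in SRF KO (n = 3). Itgb5, a partner of alpha v, had 54.6, 47.9 and 59.5 CPM in WT and 65.7, 62.6 and 70.3 CPM in SRF KO and rose by 0.29 (SE 0.08, adjusted p by edgeR 0.00969). That call was lost without SRF KO replicate 3, where the fold change was 0.25. Itgb3, another partner of alpha v, had 5.38, 5.52 and 6.69 CPM in WT and 7.69, 7.33 and 7.50 CPM in SRF KO and rose by 0.36 (SE 0.11, adjusted p by edgeR 0.0188). Its call was lost on leaving out WT replicate 1 (0.29) or replicates 1 or 3 of SRF KO (0.34 and 0.36).

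Itgb4, which pairs with alpha 6 in the hemidesmosomes of epithelia, was the only one of the set's 14 tested integrin subunits that fell. Its level was 11.5 ± 0.446 CPM in WT and 9.01 ± 0.590 CPM without SRF (SD, n = 3), and it fell by 0.35 on the log2 scale (SE 0.08, adjusted p by edgeR 0.00603). Itgb6 and Itgb8, partners of alpha v that activate TGF-beta, were near the limit of detection, with at most 7 and 10 counts in any library. The filter on low counts removed both, so that no fold is given for them. Itgb6 had a count of 0 in WT replicate 2. At a count of 0 the true value may be as high as 3 counts, or 0.0828 to 0.117 CPM in these libraries.

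Levels were then compared between subunits as CPM per kilobase of the longest annotated transcript. Sums and shares cover only the 11 alpha and 6 beta subunits of the set. The 9 other integrin subunits described below were left out, among them Itgb7, at 20.9 ± 1.56 CPM in WT and 18.9 ± 0.767 CPM in SRF KO (SD, n = 3). The summed alpha subunit mRNA was 110.3, 109 and 112 CPM per kb in WT replicates 1 to 3 and 138, 138 and 141 CPM per kb in SRF KO replicates 1 to 3. The summed beta subunit mRNA was 90.5, 92.1 and 90.0 CPM per kb in WT and 139, 141 and 143 CPM per kb in SRF KO. The beta sum was thus 1.55 times and the alpha sum 1.26 times as high in SRF KO, and neither overlapped between the groups. Beta over alpha mRNA was 0.823 ± 0.0182 in WT and 1.02 ± 0.0102 in SRF KO (SD, n = 3), with an exact two-sided permutation p of 0.1, the smallest that 3 libraries against 3 allow.

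Itga6 took a smaller share of the set's alpha mRNA in SRF KO, and Itga3 and Itga5 took larger ones. Itga6 held 52.7% ± 1.88 of the summed alpha mRNA per length in WT and 44.4% ± 1.50 in SRF KO, and remained the most abundant alpha subunit in all 6 libraries (SD, n = 3). Itga3 held 14.2% ± 1.11 and 19.0% ± 0.565, Itga5 held 18.1% ± 1.14 and 20.8% ± 0.628, and Itgav held 9.49% ± 0.577 and 9.28% ± 0.0858. The difference for Itgav was smaller than its SD in WT. Among the beta subunits of the set Itgb1 held 78.7% ± 2.33 in WT and 83.7% ± 0.821 in SRF KO, Itgb5 18.1% ± 2.17 and 14.3% ± 0.736, and Itgb4 2.04% ± 0.0912 and 1.03% ± 0.0667. The share of Itgb5 was thus smaller in SRF KO although its level was higher. These shares have no test, and they depend on the transcript length used, since Itga6 held 39.1% and 31.3% when the union of all exons was taken.

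**Figure D2:**
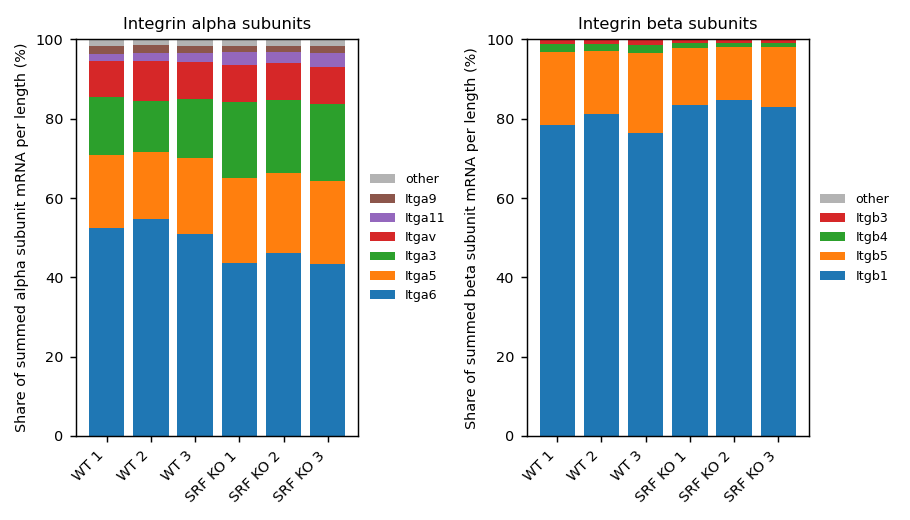
Share of each subunit in the summed integrin alpha (left) and beta (right) mRNA of the set per transcript length (y axis, %) in each library (x axis). The Itga6 segment is 51.0% to 54.7% in the WT libraries and 43.5% to 46.1% in the SRF KO libraries, and the Itgb1 segment is 76.5% to 81.1% and 83.0% to 84.6%.

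Of 5 genes for proteins that activate integrins and join them to actin, 3 fell and 2 did not pass the test. Of all genes tested, 21.3% fell. Tln1, the ubiquitous talin, had 159.8 ± 10.1 CPM in WT and 169 ± 10.7 CPM in SRF KO (SD, n = 3), with a log2 fold change of 0.08 and a 95% interval of -0.06 to 0.21. Tln2, its paralogue, fell by 0.23 (SE 0.05, adjusted p by edgeR 0.00426), from 73.5 ± 1.98 to 62.7 ± 2.47 CPM. Vcl (vinculin, which reinforces the talin to actin link), had 144, 153 and 149 CPM in WT and 125, 122 and 129 CPM in SRF KO. All its SRF KO libraries were below all WT libraries, at a fall of 0.25 on the log2 scale (SE 0.05, adjusted p by edgeR 0.00174). Fermt2 (kindlin-2) had 123, 135 and 124 CPM in WT and 114, 117 and 112 CPM in SRF KO, a change of -0.15 (SE 0.05, adjusted p by edgeR 0.0312). This call was lost without any of SRF KO replicates 1 (-0.15), 2 (-0.17) and 3 (-0.14) or WT replicate 1 (-0.18), and under DESeq2 (-0.15). Fermt1 (kindlin-1), at about 4 CPM, had a log2 fold change of -0.24 and missed the threshold (adjusted p by edgeR 0.134).

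Within the complex of integrin-linked kinase, PINCH and parvin, which binds beta tails, the members moved in different directions. Parva (alpha-parvin, an actin-binding member) had 14.3, 16.1 and 15.6 CPM in WT and 32.6, 30.9 and 35.3 CPM in SRF KO. It rose to 2.16 times the WT level, a log2 fold change of 1.11 (SE 0.08, adjusted p by edgeR 6.33e-07). Parvb (beta-parvin), outside the set, was at 108 ± 8.79 CPM in WT and 118 ± 2.55 CPM in SRF KO (SD, n = 3). The log2 fold change of Parvb, 0.13, missed the threshold (adjusted p by edgeR 0.108). Ilk, the pseudokinase at the centre of the complex, rose by 0.34 (SE 0.06), from 31.9 ± 1.13 to 40.4 ± 1.05 CPM (SD, n = 3). Lims1 (PINCH1, which stabilises Ilk) had 82.8, 104 and 92.9 CPM in WT and 74.2, 80.3 and 77.6 CPM in SRF KO, so that every SRF KO library was below every WT library. Its change of -0.27 (SE 0.07, adjusted p by edgeR 0.0137) was -0.18 without WT replicate 2, the highest library, and lost its call without SRF KO replicate 1 (-0.24).

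Of the adhesion kinases and scaffolds, Src and Tgfb1i1 passed the threshold, in opposite directions. Tgfb1i1 (Hic-5, a LIM-domain relative of paxillin) had 2.73, 2.37 and 3.21 CPM in WT and 6.91, 5.59 and 7.57 CPM in SRF KO. Its rise of 1.27 (SE 0.15, adjusted p by edgeR 4.12e-05) was the largest of all 40 genes tested, at a low level. Src, the tyrosine kinase, fell by 0.33 (SE 0.08, adjusted p by edgeR 0.0047), from 76.6 ± 8.38 to 61.1 ± 2.91 CPM (SD, n = 3). Ptk2, which encodes focal adhesion kinase, was at 93.5 ± 2.01 CPM in WT and 93.1 ± 3.35 CPM in SRF KO, with a 95% interval of -0.11 to 0.10 for the log2 fold change. Pxn (paxillin) had a log2 fold change of 0.07, with an interval of -0.09 to 0.23. Bcar1 (the scaffold p130Cas, a Src substrate) had 64.9, 55.2 and 68.8 CPM in WT and 70.7, 66.5 and 70.9 CPM in SRF KO with a log2 fold change of 0.14 that missed the threshold (adjusted p by edgeR 0.16). It passed without WT replicate 3 (0.20) and with the replicate number as a block (0.14), and was 0.06 without WT replicate 2.

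Genes for LIM-domain proteins of adhesions and stress fibres included the strongest fall and several rises. Lima1 (EPLIN, which bundles and stabilises actin filaments) had 173, 174 and 165 CPM in WT and 107, 107 and 111 CPM in SRF KO. All SRF KO libraries lay far below the WT libraries, at 0.634 times their level, a log2 fold change of -0.66 (SE 0.05, adjusted p by edgeR 9.61e-07). Zyx (zyxin, a mechanosensitive adaptor that recruits VASP) had 39.5, 32.8 and 44.2 CPM in WT and 69.7, 61.0 and 73.8 CPM in SRF KO, a rise of 0.81 (SE 0.10, adjusted p by edgeR 5.71e-05). Fhl2, a LIM-only cofactor that is known as an SRF target in other cells, had 3.62, 3.85 and 4.04 CPM in WT and 8.25, 7.78 and 7.85 CPM in SRF KO. It rose by 1.06 (SE 0.10, adjusted p by edgeR 7.67e-06), and its libraries were close together within each group. Its paralogue Fhl1 was at 54.4 ± 1.86 and 54.6 ± 1.82 CPM (SD, n = 3), with a 95% interval of -0.11 to 0.12. Vasp, which promotes actin filament growth, had 115, 105 and 118 CPM in WT and 114, 109 and 114 CPM in SRF KO, and the groups overlapped. Its 95% interval was -0.12 to 0.11. Enah, a Vasp paralogue outside the set, fell by 0.31 (SE 0.05, adjusted p by edgeR 4.49e-04), from 636 ± 17.6 to 512 ± 21.1 CPM (SD, n = 3). Evl, another paralogue outside the set, had a log2 fold change of -0.13 and missed the threshold (adjusted p by edgeR 0.128). Pdlim5 rose by 0.18 (SE 0.05, adjusted p by edgeR 0.00879) and Pdlim7, a related PDZ and LIM protein, had a log2 fold change of 0.08 (95% interval -0.09 to 0.26) that missed the threshold (adjusted p by edgeR 0.443) and was 0.00098 without WT replicate 2.

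Among the actin crosslinkers the filamins moved apart. Flnc, the filamin of muscle, had 35.95, 32.5 and 43.3 CPM in WT and 59.0, 50.8 and 65.0 CPM in SRF KO, a rise of 0.65 (SE 0.11, adjusted p by edgeR 5.07e-04). Flna, the widespread filamin that binds beta tails, fell by 0.25 (SE 0.06, adjusted p by edgeR 0.00608), from 429 ± 24.8 to 362 ± 21.2 CPM (SD, n = 3). Actn4, an alpha-actinin and the gene of the set with the highest level per length, had 699, 685 and 704 CPM in WT and 704, 687 and 713 CPM in SRF KO. These values overlapped, and the 95% interval of the change was -0.09 to 0.11. Actn1, the other alpha-actinin here, had 236, 235 and 239 CPM in WT and 269.97, 259 and 270.2 CPM in SRF KO and rose by 0.17 (SE 0.05, adjusted p by edgeR 0.0111). Its call was lost without SRF KO replicate 1 (0.16) or SRF KO replicate 3 (0.16).

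Both tensins of the set, which tie integrins to actin in long-lived fibrillar adhesions, were higher, as were 21.2% of all genes tested. Tns1 had 25.0, 24.6 and 26.7 CPM in WT and 51.4, 43.4 and 50.5 CPM in SRF KO, a log2 fold change of 0.93 (SE 0.07, adjusted p by edgeR 2.18e-06). Tns3, the more abundant tensin of the set, had 209, 207 and 222 CPM in WT and 248, 252 and 259 CPM in SRF KO. It rose by 0.25 (SE 0.05, adjusted p by edgeR 0.00162). For both genes the groups did not overlap. Of the tensins outside the set, Tns2 rose by 0.45 (SE 0.08, adjusted p by edgeR 6.09e-04). Tns4 had a log2 fold change of 0.36 and missed the threshold (adjusted p by edgeR 0.132).

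**Figure D3:**
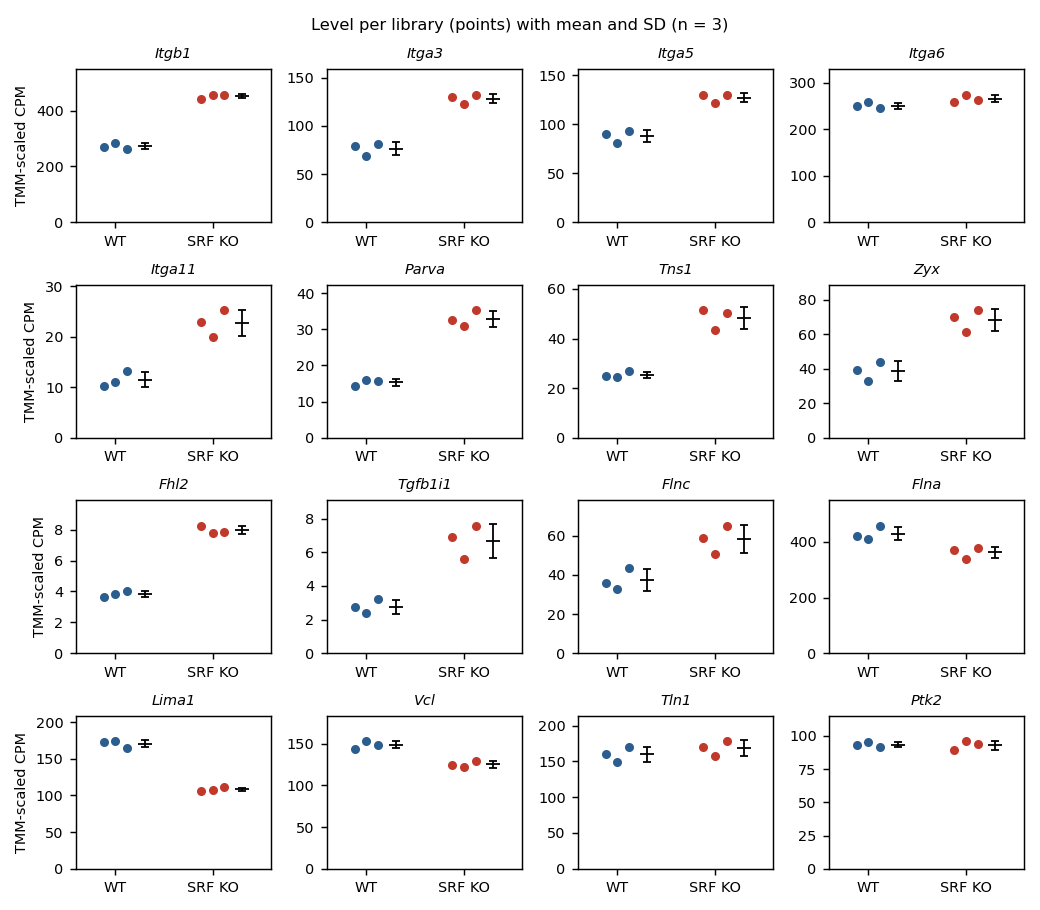
Level of 16 genes of the set (y axis, TMM-scaled CPM, from 0) in each WT (blue) and SRF KO (red) library, with the mean and SD of each group in black (n = 3). The Itgb1 points lie at 263 to 285 in WT and 442 to 456 in SRF KO, the Lima1 points at 165 to 174 and 107 to 111, and those of Tln1 and Ptk2 overlap between the groups.

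Ratios of related genes were taken within each library, since they do not depend on library scaling. The counts of Flna over Flnc were 11.7, 12.6 and 10.6 in WT replicates 1 to 3 and 6.30, 6.64 and 5.79 in SRF KO replicates 1 to 3. Fhl1 over Fhl2 was 14.5, 14.2 and 13.8 in WT and 6.86, 6.90 and 6.79 in SRF KO, and Pxn over Tgfb1i1 was 24.6, 24.6 and 22.1 in WT and 10.5, 11.5 and 9.21 in SRF KO. In each of these pairs the ratio was closer to 1 in SRF KO. The same held for Tns1 over Tns3, at 0.120, 0.119 and 0.120 in WT and 0.207, 0.172 and 0.195 in SRF KO, and for Itga3 over Itga6, at 0.317, 0.267 and 0.332 in WT and 0.5004, 0.449 and 0.502 in SRF KO. Actn1 over Actn4 and Itga5 over Itga6 were also closer to 1, with log2 differences (SRF KO minus WT) of 0.157 and 0.451. The opposite was seen for Tln1 over Tln2, with a log2 ratio of 1.12 ± 0.0717 in WT and 1.43 ± 0.0515 in SRF KO (SD, n = 3), and for Itgb5 over Itgb1, where the log2 ratio was lower by 0.428 in SRF KO. Itgb3 over Itgb1 and Itgav over Itga5 were likewise farther from 1 in SRF KO, with log2 differences of -0.362 and -0.233. Of 13 pairs examined, 11 did not overlap between the groups, and Fermt1 over Fermt2 and Pdlim5 over Pdlim7 did. Of all single genes tested, 26.2% did not overlap with SRF KO higher and 26.5% with SRF KO lower. Each of the 11 had an exact two-sided permutation p of 0.1, the smallest that 3 libraries against 3 allow, and 0.118 after Benjamini-Hochberg adjustment over the 13 pairs.

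**Figure D4:**
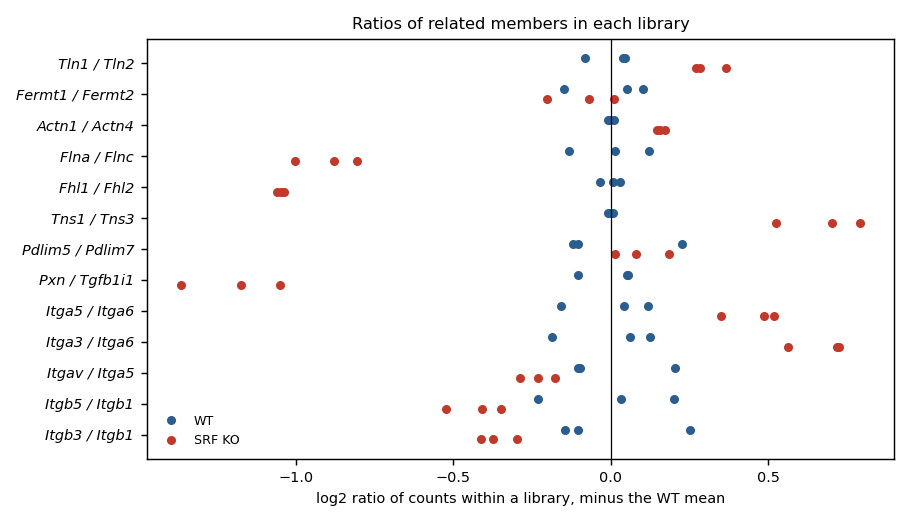
Log2 ratio of the counts of 2 related genes in each library, minus the mean of the WT libraries (x axis), for 13 pairs (y axis). Blue points are WT and red points SRF KO libraries, and for 11 pairs the colours do not overlap. Flna over Flnc, Fhl1 over Fhl2 and Pxn over Tgfb1i1 lie farthest to the left, with mean differences of -0.90, -1.05 and -1.20.

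The wider pathway was then described with lists typed for this purpose, with earlier results of these data known. Of 9 other integrin subunits, mostly those of blood cells, 7 could be tested. Itgb2 rose by 0.65 (SE 0.15, adjusted p by edgeR 0.00494), and Itga2b, the platelet subunit, fell by 0.62 (SE 0.17, adjusted p by edgeR 0.0124), both at under 4 CPM. The call of Itga2b was lost without SRF KO replicate 1 (-0.52) or SRF KO replicate 3 (-0.55). Of 60 other adhesion adaptors, all tested, 16 rose and 14 fell, shares near the 21.2% and 21.3% of all genes tested, with a median log2 fold change of 0.07. The smallest p-values among those that rose belonged to Nedd9 (a relative of Bcar1, 1.71), Cav1 (caveolin-1, 1.14) and Lpp (a relative of zyxin, 0.67). Those that fell included Actn3 (an alpha-actinin of fast muscle, -1.45) and Kank2 (a talin-binding protein, -0.72).

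The mRNA of most of the listed matrix proteins that integrins bind was higher in SRF KO. Of 22 listed matrix genes 21 could be tested, 15 rose and 4 fell, with a median log2 fold change of 1.02, where 21.2% of all genes tested rose and 21.3% fell. The number that fell is thus near the share of all genes. Col4a1, Col4a2, Lama1, Lamb1 and Lamc1 are also on the endoderm marker list, and Col1a1, Col1a2 and Col3a1 on the fibroblast marker list. All of these rose, so that the matrix result is not separate from that of the markers. The smallest p-values among the rises were those of basement membrane genes that also stand on the endoderm marker list: Col4a1 (3.36, from 72.0 ± 3.27 to 740.3 ± 36.2 CPM), Lama1 (2.76, from 87.4 ± 4.39 to 590.4 ± 14.6 CPM) and Col4a2 (2.97, from 50.6 ± 4.34 to 397 ± 24.7 CPM; SD, n = 3). The genes that fell included the laminin chain genes Lama3 (-0.54), Lamb3 (-0.75) and Lama5 (-0.43). Fn1 (fibronectin, the ligand of alpha 5 beta 1) was at 1977 ± 50.4 CPM in WT and 2136 ± 123 CPM in SRF KO (SD, n = 3), and its change of 0.11 missed the threshold (adjusted p by edgeR 0.127).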

How the data were processed

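The deposited table holds raw counts of reads per gene and per repeat subfamily, without normalization, judged from its whole-number values. Per the labels' protocols, total RNA was taken with TRIzol and read as 150 bp pairs on an Illumina instrument, and the authors cleaned the reads of adaptors and of empty or poor reads. The submitters' processing notes name the build mm10 and the tool DESeq2. The aligner, the counting program, the annotation and the strand setting are not given in the sources used here, so that overlapping or antisense genes cannot be told apart.

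All 15611 rows that passed edgeR's filterByExpr (minimum count 10) were fitted together with TMM scaling and edgeR's quasi-likelihood test (edgeR 4.0.16, R 4.3.3). The SE is the fold change divided by the root of the F statistic, and 95% intervals use the fit's degrees of freedom. Alternatives were DESeq2 1.42.0, other scalings, filters and thresholds, gene entries alone, a replicate block and leaving out each library. On simulated data of 15611 rows edgeR recovered 95% of 2-fold and 100% of 4-fold changes, with 4.88% false calls. In that simulation only 200 rows were changed, all rows had the same dispersion, and no library stood apart. The real libraries differ in these respects, so that the rates may not hold for them. Lengths are from GENCODE M21 (GRCm38, the build mm10) and promoters from RefSeq. No replicate pair agreed within sampling noise, at a chi-square per degree of freedom of 1.83 to 15.3. Floors cover counting error only, since reads are not independent molecules.

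The genes and lists were chosen with earlier results of these data known. Values in every library are given for genes past the threshold with a log2 change of 0.5 or more in size, for the most abundant gene per length of each role, and for genes whose call changed when 1 library was left out. From the wider lists, up to 3 genes with the smallest p in each direction are named. Fn1, Lamb3, Parvb, Tns2, Tns4, Enah and Evl were named after their values were seen. Some genes that this rule would name are not reported here.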

Additional observations from a re-analysis of the deposited data

How the results depend on the processing

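Of the 40 genes tested, 33 kept their side of the threshold in all 12 alternatives run for each, among them 23 of the 28 called. The 7 others are named in the text with their values. Across the fits that each left out 1 library, 17 to 21 genes rose and 6 to 8 fell. DESeq2 gave 20 and 7. With a replicate block 21 rose, Bcar1 in addition, and 8 fell. Replicate numbers were not taken as pairs, since the sources used here give them only as numbers. Deviations from the group means correlated between same-numbered libraries at 0.0574, 0.383 and 0.236, all positive. Whether same-numbered libraries share an effect was not tested. With a limit of 1 on the size of the log2 change, 4 genes rose and 0 fell by edgeR (0 also at an unadjusted p under 0.05, and 0 by DESeq2), which follows from that limit.

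The sign turned only for genes near 0 that were not called. Vasp (-0.0048) became 0.0012 under DESeq2, 0.0050 with RLE scaling and 0.00072 with upper quartile scaling, and lay between -0.047 and 0.027 when 1 library was left out. Ptk2 (-0.0063) became 0.0028 with RLE scaling and lay between -0.023 and 0.021. The ranges were -0.022 to 0.026 for Fhl1 and -0.17 to 0.10 for Itga7. The difference in the share of Itgav was -0.69 percentage points with the union of exons, and lay between -0.42 and 0.13 when 1 library was left out, above 0 without WT replicate 2. The causes were not tested.

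For the other integrins, 2 rose with RLE or upper quartile scaling, without the filter, with the block, or without SRF KO replicate 2 or WT replicate 2. The number that fell was 0 without SRF KO replicate 1 or 3 and at an adjusted p of 0.01, and 2 without WT replicate 2. With a limit of 1 on its size, 0 of these integrins rose and 0 fell, 3 other adaptors rose and 2 fell, and 0 matrix genes fell. Depth limits Itga2, Itgb6 and Itgb8, which had too few counts to test.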
